A study of Rattus norvegicus with 9 samples.

Results

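The cerebral cortex of untreated rat pups on postnatal day 4 was described from 3 control arrays out of the 9 arrays of the series. These 3 arrays were chosen by their labels alone, which give the Control group and replicates 1 to 3. The pups were Hsd:Sprague Dawley rats of the F2b litters, with 1 pup taken per litter. All groups came from a breeding study that ran over several generations, in which parents ate a diet with 0, 750 or 2500 ppm of 4-methylimidazole (4-MeI), a small heterocycle that forms when food browns. The control pups came from the 0 ppm diet, and the 6 other arrays hold cortex of pups of the same age and strain from the 750 ppm and 2500 ppm diets, 3 of each. The cortex was dissected as a block of tissue, so every array mixes neurons, glia, vessels and any meninges left on the surface. The sex of the pups and the time of day of sampling are not stated in the labels.

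Rat cortex in the first postnatal week is at a stage when most projection neurons have been born and are extending axons and dendrites. Synapse formation has begun, astrocytes and oligodendrocyte precursors are multiplying, and compact myelin has yet to form. Subunits of receptors and channels are exchanged over the following weeks as the circuits mature. RNA was measured on Affymetrix Rat Genome 230 2.0 arrays, on which a gene is read by 1 or more probe sets near its 3′ end. The values are log2 intensities after robust multi-array averaging (RMA), so that a difference of 1 is a doubling of signal.

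Of 31042 probe sets other than the array's own controls, 20826 carried exactly 1 gene symbol and represented 14217 genes. Each gene is given by its brightest probe set over the controls unless another is named. Probes bind with different strength, so a brighter gene need not have more transcripts. Among 4525 genes with several probe sets, the brightest and dimmest differed by more than 2 log2 units in 2329. The order of genes below is therefore an order of signal. RMA values carry no detection call, and a reference for dim signal was taken from genes of other organs, such as pancreatic enzymes, liver plasma proteins and sperm proteins. The 43 probe sets of 37 such genes had a median of 5.27 and a 90th percentile of 7.12. A gene was counted as above this other-organ signal when all 3 controls exceeded 7.12, which held for 9988 of 14217 genes (70.3%). A gene below it is not shown to be absent, since the probe sets of Rpl30 (4.86 ± 0.03, SD, n = 3) and Rps13 (6.50 ± 0.08), both ribosomal protein genes needed in every cell, lay there too.

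The medians of the 9 arrays lay between 7.66 and 7.70, as RMA makes them alike. Across all probe sets, the Pearson correlation was 0.998 for controls 1 and 2 and 0.995 for control 3 with either of them, a description across probe sets that are not independent. Signals more than 1 log2 unit apart were found for 18 probe sets between controls 1 and 2, 102 between controls 1 and 3 and 78 between controls 2 and 3. Control 3 thus stood somewhat apart from the other two, and the rankings that rest on it are also given without it.

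The labelled tissue was checked against region markers. Of 37 measured transcription factors of the cortex, 34 lay above the other-organ signal (91.9%, against 70.3% of all genes), with a median of 11.54. Of 24 factors that pattern the hindbrain, spinal cord, midbrain or hypothalamus, 1 lay above it (4.17%), and the median was 5.59. The exception was Pax8, which read 7.38, 7.15 and 7.41 in controls 1 to 3. The Hox genes measured, which mark hindbrain and spinal cord, ranged from 4.66 for Hoxa5 to 7.13 for Hoxb3.

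Ribosomal proteins and proteins of growing neurons gave the largest groups among the brightest genes. The 100 brightest genes spanned 15.01 to 13.65, with the next gene also at 13.65. First was COX1, a mitochondrially encoded subunit of cytochrome c oxidase, at 15.03, 14.97 and 15.04 in controls 1 to 3. Actg1, the cytoplasmic gamma actin, followed at 14.96 in each control. COX2, a second mitochondrially encoded subunit, read 14.91, 14.89 and 14.90. Tmsb4x, which binds actin monomers, read 14.76, 14.81 and 14.74. The 3 arrays were within 0.1 log2 units of each other for each of these genes. RMA equalises the arrays' distributions, which brings values at the top close together, so this is not a measure of agreement between pups.

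Ribosomal protein genes with the prefixes Rps and Rpl made up 27 of the 100, led by Rps29 at 14.60 ± 0.02, Rps23 at 14.46 ± 0.02 and Rpl27a at 14.41 ± 0.02. The elongation factor Eef1a1, which brings aminoacyl-tRNA to the ribosome, stood among them at 14.50 ± 0.03. Messages of ribosomal proteins typically begin with an uninterrupted stretch of pyrimidines, the 5′ terminal oligopyrimidine tract, through which growth signals control their translation. RefSeq start sites in the GRCr8 assembly were available for 24 of the 27 genes. A stretch of at least 6 bases of C or T on the coding strand, starting within 4 bases of the annotated start, was present in 9 of them (37.5%). It was present in 9 of 59 other genes among the 100 (15.3%) and in 3306 of 33469 start sites in the table (9.88%). These shares describe annotated starts and were not tested. The 4 genes with the longest stretches are printed to show what such a start looks like. They lie at chr2:23814502-23814531, chr1:172974558-172974587, chr9:81748076-81748105 and chr10:83519049-83519078, in the order printed and all on the plus strand, and capitals mark the pyrimidine stretch, which runs on past the end of the 30 bases printed for Rps23 (21 bases in all) and Rpl27a (20 bases in all):
Rps23: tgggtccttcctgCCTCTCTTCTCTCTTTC
Rpl27a: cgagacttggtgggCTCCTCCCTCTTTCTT
Rpl37a: gcatgcccgttgcgTCTCTTCCTCTTCggg
Rpl19: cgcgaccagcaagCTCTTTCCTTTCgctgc
The same genes varied little between pups. Rps23 read 14.47, 14.44 and 14.47, Rpl27a read 14.41, 14.42 and 14.39, Rpl37a read 13.98, 14.03 and 13.97, and Rpl19 read 14.06, 14.03 and 14.05.

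Genes of newly born and growing neurons were the second large group, with 15 of 22 measured members among the 100 brightest. Stmn1, which destabilises microtubules, read 14.67, 14.70 and 14.65. Its neuronal relative Stmn2, concentrated in growth cones, read 14.49, 14.51 and 14.50, and Stmn3 read 13.98 ± 0.04. Tubb2b and Tubb2a, beta tubulins of the developing brain, read 14.60 ± 0.03 and 14.56 ± 0.02, and Tubb5, Tubb3 and Tubb4b were also among the 100. Gap43, a growth cone membrane protein, read 14.38, 14.42 and 14.36. Marcks and Marcksl1, which link actin to the membrane, read 14.21 ± 0.03 and 13.95 ± 0.03. Axonal and dendritic microtubules were represented by Map1b at 14.15 ± 0.06, Mapt (tau) at 14.08 ± 0.01 and Map2 at 13.77 ± 0.04, and axon guidance by Dpysl2 at 14.39 ± 0.01.

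Several other bright genes have known roles in this tissue. Fabp5 (14.39 ± 0.01) encodes a fatty acid binding protein, and Fabp7 (14.00 ± 0.09) its relative of radial glia and young astrocytes. Cpe (14.36 ± 0.02) trims neuropeptide precursors. Ywhaq, Ywhaz and Ywhag encode 14-3-3 adaptor proteins and read between 14.20 and 14.29, and Ywhah and Ywhab brought the family to 5 of the 100. Ptn (14.04 ± 0.06) encodes pleiotrophin, a secreted growth factor. Calm2, Zwint, Rtn1, Apc2, Ids, Enc1, Mllt11 and Matr3 also stood in the first 40, between 14.00 and 14.45.

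**Figure D1:**
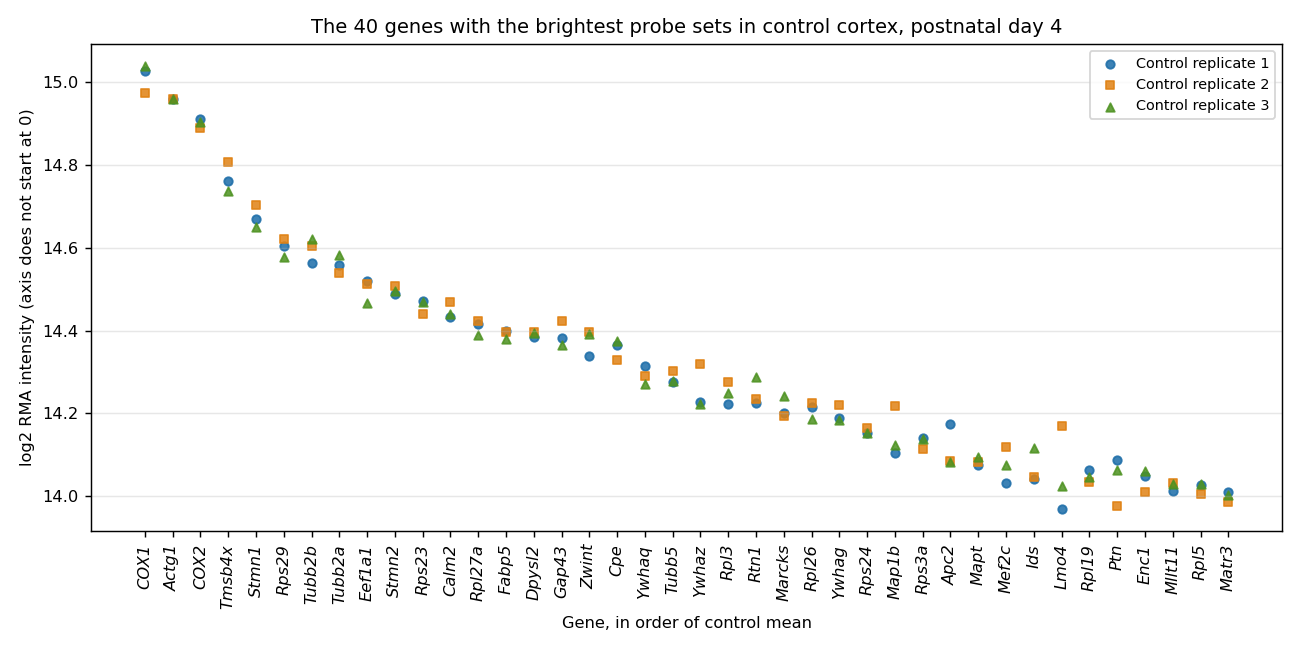
Log2 RMA intensity (vertical axis, not starting at 0) of the 40 genes with the brightest probe sets in control cortex, with 1 point for each of the 3 control arrays. The values run from 15.01 for COX1 to 14.00 for Matr3, and the 3 points of a gene lie close together, the widest being Lmo4 with 13.97, 14.17 and 14.02.

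Immature and mature neuronal genes were both present. All 22 measured genes of the immature neuron list lay above the other-organ signal (against 70.3% of all genes), from 10.32 for Igfbpl1 to 14.77 for Tmsb4x. Dcx, the microtubule protein of migrating neurons, read 13.47, 13.52 and 13.58. The transcription factors Sox4 and Sox11, which drive early neuronal differentiation, read 13.73 ± 0.07 and 11.02 ± 0.05. Of 17 genes associated with mature neurons, 16 lay above that signal (94.1%), with a median of 11.25. Rbfox3, the gene of the NeuN antigen, read 12.10 ± 0.11. The neurofilament genes Nefm and Nefl read 11.85 ± 0.12 and 11.08 ± 0.15, while Nefh, the heavy subunit of large calibre axons, read 7.99, 8.10 and 7.52. The exception below the other-organ signal was Pvalb, the calcium buffer of fast-spiking interneurons, which appears later in development, at 5.50, 5.46 and 5.44.

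Ionotropic glutamate receptors were represented by most of their subunits. NMDA receptors pair the obligatory subunit encoded by Grin1 with regulatory subunits that change during development. Grin1 read 9.65, 9.59 and 9.61. Grin2b, the main regulatory subunit of the immature forebrain, read 10.11, 10.39 and 9.93 on its brighter probe set and 7.68 ± 0.16 on the other. Grin3a, a subunit that peaks in early postnatal life, read 9.40, 9.72 and 9.41. Grin2a, which joins receptors as synapses mature, read 7.80, 7.65 and 7.86 on the brightest of its 3 probe sets and 4.88 ± 0.25 on the dimmest. Grin2d and Grin3b lay below the other-organ signal at 6.70 ± 0.05 and 6.66 ± 0.13. With 5 of 7 genes above, this list did not stand out from the 70.3% of all genes.

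Of 10 AMPA and kainate receptor genes, 8 lay above the other-organ signal (80%, against 70.3% of all genes). Gria2, whose edited subunit keeps AMPA receptors impermeable to calcium, read 13.17, 13.13 and 13.01. Gria3, Gria4 and Gria1, the other AMPA subunits, read 11.53 ± 0.07, 10.71 ± 0.23 and 9.24 ± 0.09. Kainate subunits Grik2, Grik5, Grik1 and Grik4 read between 9.90 and 7.82, and Grik3 read 6.07 ± 0.11. The proteins that escort AMPA receptors included Cnih2 at 11.74 ± 0.02 and Cacng2 (stargazin) at 9.66 ± 0.07, while Cacng8 read 6.52 ± 0.07. Among metabotropic receptors, Grm3 read 12.08, 11.95 and 11.89 and Grm5 read 10.97, 10.97 and 10.61. Of these receptor genes, 5 of 7 lay above the reference (71.4%, near the 70.3% of all genes). The 3 controls overlapped within 0.5 log2 units for these receptors except Grm7, a presynaptic receptor, at 8.08, 8.39 and 7.39.

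GABA is made by Gad1 and Gad2, and its effect on young neurons depends on the chloride that enters through Slc12a2 and leaves through Slc12a5. Gad1 read 11.49, 11.56 and 11.42, and Gad2 read 7.61, 7.59 and 8.23 on its only probe set. The importer Slc12a2 read 10.87, 10.74 and 10.98, and the exporter Slc12a5 read 11.51, 11.46 and 11.34. Both transporters were thus well above the other-organ signal at this age, and the signals of 2 different probe sets do not give their ratio. Among GABA-A subunits, Gabra5 read 12.03 ± 0.04, Gabrb2 11.90 ± 0.02, Gabra2 10.26 ± 0.19 and Gabrd 9.17 ± 0.12. Gabra4 and Gabra3 were close to the reference at 7.53 ± 0.07 and 7.30 ± 0.10. Gabra6, a subunit of cerebellar granule cells, was below it at 5.50 ± 0.14. Gabrb1 was the member that varied most between pups, at 11.00, 11.10 and 10.17. The GABA-B subunits Gabbr1 and Gabbr2 read 11.84 ± 0.05 and 11.87 ± 0.07.

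Glycine receptors in the immature forebrain contain the alpha 2 subunit. Its gene, Glra2, read 11.45, 11.56 and 11.64, and Glrb, the beta subunit that anchors receptors to gephyrin, read 11.67, 11.65 and 11.43. Gphn, the gephyrin gene, read 11.21 ± 0.17. Glra1, the adult subunit of spinal cord and brainstem, read 6.31 ± 0.13, Glra3 read 4.14 ± 0.02, and Slc6a5, the transporter of glycinergic neurons, read 5.45 ± 0.14. All 3 of these lay below the other-organ signal.

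Of 14 measured genes of GABA neurons, 12 lay above the other-organ signal (85.7%, against 70.3% of all genes). Which cells of the block gave these signals, Gad2 among them, was not tested. Npy and Sst, peptides of separate and partly overlapping interneuron classes, read 12.17 ± 0.29 and 10.54 ± 0.21, and Vip read 9.28 ± 0.20. Dlx1 and Dlx5, homeobox genes of interneuron precursors, read 11.83 ± 0.14 and 8.91 ± 0.01. Reln, the secreted protein of Cajal-Retzius cells and of some interneurons, read 11.88, 11.73 and 11.89.

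Voltage-gated sodium channel genes showed the embryonic and early postnatal members above the reference. Scn2a, the main channel of young axons, read 11.65, 11.86 and 11.53. Scn3a, which declines after birth in rodents, read 11.12, 11.06 and 11.30. Scn1a, a channel of interneurons that rises later, read 9.42 ± 0.18. Scn8a, the channel of mature nodes and initial segments, read 7.07, 6.94 and 7.05, below the other-organ signal, on its single probe set. The auxiliary subunit Scn3b read 12.11 ± 0.09. In all, 6 of 12 sodium channel genes lay above, fewer than the 70.3% of all genes, and Scn4a, Scn10a and Scn11a, known from muscle and sensory neurons, were among those that did not.

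Potassium channels formed the largest channel family, and 25 of 33 lay above the reference, close to the share of all genes. Kcnd2, the somatodendritic A-type channel, read 11.40 ± 0.11 and Kcnq5, an M-current channel, 11.38 ± 0.01. Kcnk2, a background channel, read 10.46 ± 0.13, and Kcna2, of axonal delayed rectifiers, 10.23 ± 0.18. Kcnc1 and Kcnc2, the fast channels that accompany fast spiking, read 9.27 ± 0.05 and 9.24 ± 0.15. Kcnq3 read 7.66 ± 0.14. Kcnj10, the inward rectifier of mature astrocytes, read 4.42 ± 0.19. Among calcium channels, 13 of 16 genes lay above (81.25%, against 70.3% of all genes). The auxiliary subunit Cacna2d1 read 12.09 ± 0.04, the presynaptic N-type channel Cacna1b 10.08 ± 0.26 and the P/Q-type channel Cacna1a 7.63 ± 0.05. Cacna1s, the channel of skeletal muscle, read 5.27 ± 0.26.

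Synaptic machinery was broadly represented. Of 16 vesicle genes, 15 lay above the other-organ signal (93.75%, against 70.3% of all genes), with a median of 11.24. Of 18 postsynaptic genes 17 did (94.4%), with a median of 10.51. The fusion protein gene Snap25 read 13.14, 13.24 and 13.22. The vesicle proteins Syp and Vamp2 read 11.25 ± 0.02 and 11.98 ± 0.04. Syt1, the calcium sensor of fast release, read 8.30 ± 0.13, and its relative Syt4 read 13.04 ± 0.08. Camk2b, the kinase subunit present early in development, read 12.75 ± 0.02, and Camk2a, which is known to rise as synapses mature, read 10.41 ± 0.04. Dlg4, the gene of PSD-95, read 11.36, 11.09 and 11.90 on its brightest probe set and 10.28 ± 0.07, 8.46 ± 0.09 and 7.43 ± 0.12 on the others. Nlgn2, an adhesion protein of inhibitory synapses, was the postsynaptic gene below the reference on at least 1 array, at 7.08, 7.52 and 7.21.

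**Figure D2:**
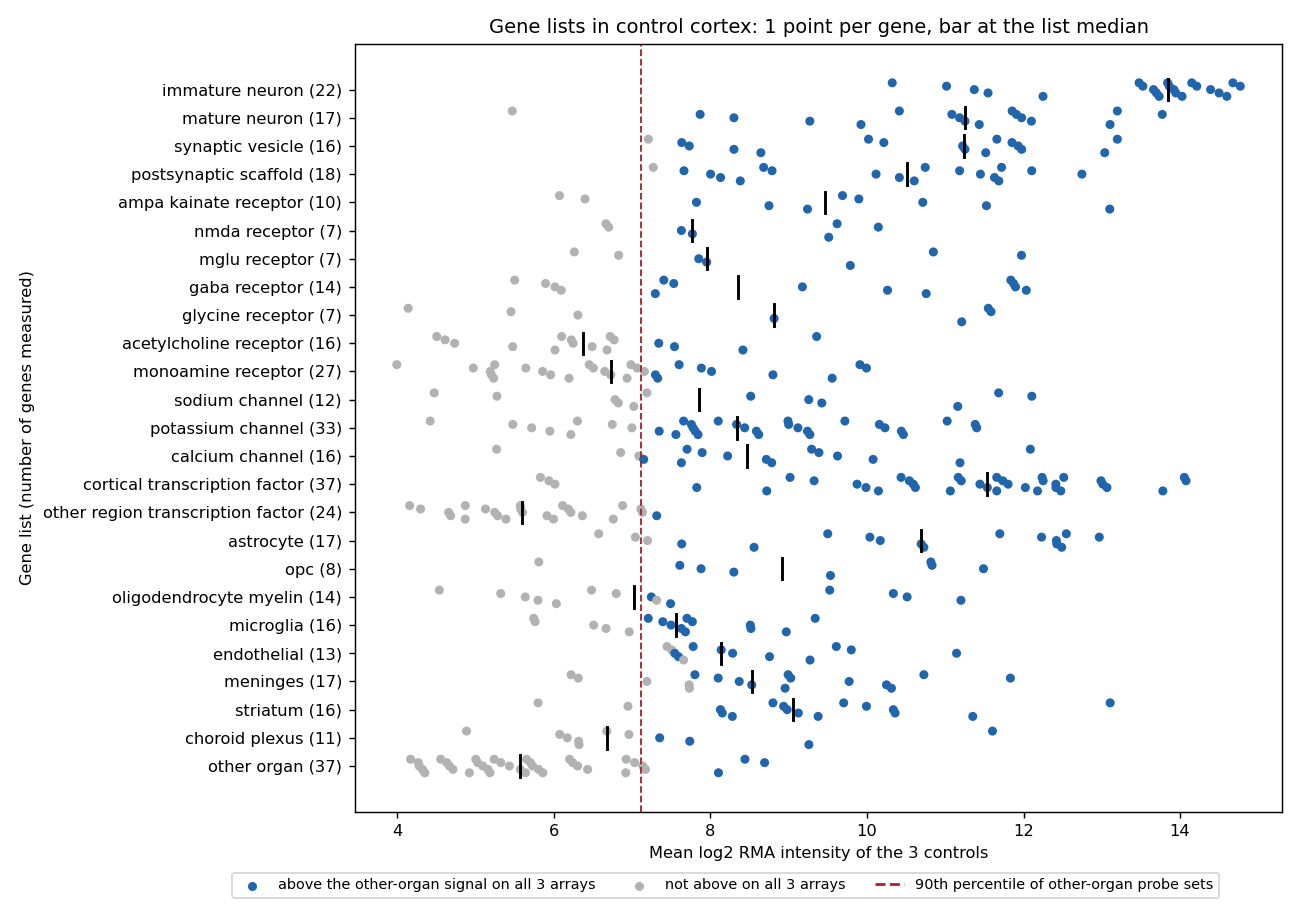
Mean log2 RMA intensity over the 3 controls (horizontal axis) of every measured gene of 25 gene lists, with 1 point per gene, a bar at each list's median and a dashed line at 7.12, the 90th percentile of the other-organ probe sets. Immature neuron genes lie farthest right with a median of 13.85, cortical transcription factors have a median of 11.54, and the factors of other regions lie among the other-organ genes with a median of 5.59.

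The transcription factors of cortical layers were bright. Mef2c, which controls activity-dependent synapse number, read 14.03, 14.12 and 14.08. Lmo4, a cofactor that shapes cortical areas, read 13.97, 14.17 and 14.02. Zbtb18, a repressor required for cortical neuron differentiation, read 13.82, 13.75 and 13.77. These were the 3 cortical factors among the 100 brightest genes. Neurod6 and Bhlhe22, factors of postmitotic excitatory neurons, read 13.07 ± 0.13 and 13.01 ± 0.07. Deep-layer factors included Bcl11b (Ctip2) at 12.99 ± 0.13, Etv1 at 12.48 ± 0.12, Tle4 at 11.73 ± 0.05, Foxp2 at 11.44 ± 0.16 and Fezf2 at 10.44 ± 0.29. The same Bcl11b probe set read 12.19, 12.62 and 12.35 on the 2500 ppm arrays. Genes typical of the striatum also gave signal in these blocks, as given below, and the cell source of Bcl11b was not tested. Upper-layer factors included Pou3f3 at 12.41 ± 0.10, Cux1 at 10.54 ± 0.17, Cux2 at 9.87 ± 0.05 and Rorb, a marker of layer 4, at 9.32 ± 0.26.

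The other 3 cortical factors lay below the other-organ signal. Tbr1, a factor of layer 6 neurons, read 6.01 ± 0.09 on its only probe set, Pou3f2 read 5.94 ± 0.13, and Neurog2, a factor of dividing progenitors, read 5.83 ± 0.15. For such genes a probe set that reads poorly and a low transcript level cannot be told apart. Nr4a2, which marks deep and subplate neurons, differed most between pups in this list, at 10.09, 9.44 and 10.43.

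Progenitor and division genes were still present. Fabp7 apart, Ptprz1 (12.40 ± 0.04), Vim (11.59 ± 0.40), Tnc (11.39 ± 0.04) and Sox2 (11.08 ± 0.05), all genes of radial glia or of the astrocytes that derive from them, were the brightest of 13 measured. Of the 13, 12 lay above the reference (92.3%, against 70.3% of all genes). Eomes, which marks the intermediate progenitors of excitatory neurons, was the exception at 6.21, 6.20 and 6.27. Vim read 11.92, 11.69 and 11.15 in controls 1 to 3 and between 12.05 and 12.23 on the exposed arrays. The cell source of the Vim signal was not tested. Of 21 cell cycle genes, 20 lay above (95.2%). The replication clamp Pcna read 12.22, 12.14 and 12.01, and the proliferation marker Mki67 read 9.17, 9.32 and 8.80. Top2a and Ccna2, of dividing cells, read 9.22, 9.21 and 8.74 and 9.43, 9.29 and 8.67. Control 3 was the lowest control for 18 of the 21 genes, against 45.2% of all genes ranked for spread.

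Astrocyte genes lay above the other-organ signal in 14 of 17 cases (82.4%, against 70.3% of all genes), with a median of 10.69. The glutamate transporter Slc1a3 read 13.00, 13.00 and 12.91, the water channel Aqp4 12.44, 12.50 and 12.34, and the gap junction gene Gja1 12.69, 12.45 and 12.50. Apoe, Glul and Aldoc, of lipid transport, glutamine synthesis and glycolysis, read 12.49 ± 0.13, 12.23 ± 0.14 and 11.70 ± 0.06. Gfap, the intermediate filament of maturing and reactive astrocytes, read 8.53, 9.01 and 8.14. Slc1a2, the glutamate transporter that is known to rise over the first postnatal weeks, was below the reference at 6.64, 6.58 and 6.51, as was its other probe set.

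The oligodendrocyte lineage was represented by precursors more completely than by myelin. Of 8 precursor genes, 7 lay above the reference (87.5%). Pdgfra, the receptor of precursors, read 11.61, 11.57 and 11.28, Olig1 read 11.00, 10.97 and 10.48, and Sox10 read 8.30 ± 0.13. Olig2 was the exception, at 5.82, 5.74 and 5.87. Of 14 genes of myelinating cells, 6 lay above (42.9%), against 70.3% of all genes. Cnp, an early enzyme of the lineage, read 11.20 ± 0.27 and Bcas1, a gene of newly formed oligodendrocytes, 10.51 ± 0.31. The late myelin genes Mog, Mal, Opalin and Mobp read 6.48 ± 0.08, 5.80 ± 0.01, 5.32 ± 0.16 and 4.54 ± 0.10, none above the other-organ signal. Mbp, the basic protein of compact myelin, depended on the probe set, with 10.33, 10.30 and 10.38 on the brightest, 10.31, 10.36 and 9.21 on the next and 7.53 ± 0.28 on the third.

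Microglial and vascular genes were at lower signal. Of 16 microglial genes, 11 lay above the other-organ signal (68.8%), near the 70.3% of all genes. Ctss read 9.34 ± 0.04, the purinergic receptor P2ry12 8.97 ± 0.07 and C1qa, a complement protein, 8.51 ± 0.16. Tmem119, which microglia are known to gain as they mature, read 6.60, 6.35 and 6.57. Among endothelial genes 10 of 13 lay above (76.9%, against 70.3% of all genes). The tight junction gene Cldn5 read 11.40, 11.23 and 10.81 and the glucose transporter Slc2a1 9.80 ± 0.09. Of 8 measured blood genes, 2 lay above the other-organ signal (25%, against 70.3% of all genes). Hbb, an adult beta globin gene of red blood cells, read 13.45, 13.54 and 13.61, and the embryonic globin Hbe1 read 4.60 ± 0.06. The cell source of the Hbb signal was not tested.

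Genes of tissues next to the cortex were also measured, because a dissected block can carry them. Fewer cells of a type and less RNA per cell cannot be told apart in such blocks. Of 16 genes typical of striatal projection neurons, 14 lay above the reference (87.5%, against 70.3% of all genes). Penk read 10.97, 10.05 and 10.05, Drd1 10.19, 9.75 and 10.04, Ppp1r1b 9.41, 8.58 and 8.96, and Adora2a 9.66, 9.19 and 9.27. Control 1 was the highest control for 13 of the 16, and the share over all genes was not counted. Some of these genes are also expressed in cortex, among them Meis2 (13.11 ± 0.10), Penk and Tac1. Of 11 choroid plexus genes, 4 lay above (36.4%), and Ttr, the transthyretin carrier that defines this epithelium, read 7.70, 7.34 and 8.17. The choroid plexus genes Folr1, Otx2 and Kl were below the reference at 6.17 ± 0.13, 6.32 ± 0.17 and 4.88 ± 0.13. Of 17 meningeal genes, 12 lay above (70.6%, near the 70.3% of all genes).

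Receptors for neuromodulators were mostly at the level of the other-organ genes. Of 16 acetylcholine receptor genes 4 lay above (25%), and of 27 monoamine and histamine receptor genes 9 did (33.3%), both shares under the 70.3% of all genes. Chrm3, a muscarinic receptor, read 9.30, 9.42 and 9.34, while Chrm1, the main muscarinic receptor of adult cortex, read 6.06, 5.92 and 6.06. Chrna5, a nicotinic subunit of deep-layer neurons, read 7.96, 8.88 and 8.40. Htr2c and Adra2a, for serotonin and noradrenaline, read 9.91 ± 0.15 and 9.56 ± 0.32. Drd3, Drd5 and Htr2b read 4.97 ± 0.10, 5.23 ± 0.13 and 3.99 ± 0.11. Receptor genes often have few transcripts per cell, and these probe sets give no evidence that the dim members are absent.

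Of 16 growth factor receptor genes, 10 lay above the reference (62.5%, against 70.3% of all genes). Ntrk2, the receptor of brain-derived neurotrophic factor, read 12.26, 12.29 and 12.19, and Ntrk3, the receptor of neurotrophin 3, read 10.30 ± 0.07. Cxcr4, which guides migrating interneurons, read 9.69, 9.71 and 9.82. Bdnf itself was near the reference at 7.05, 6.93 and 6.77. Of 19 neuropeptide and granin genes, 16 lay above (84.2%). Cck, a peptide of excitatory neurons and of some interneurons, read 11.98, 12.13 and 11.92, and Crh, corticotropin releasing hormone, read 8.50, 8.58 and 8.05.

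The spread between the controls was small for most genes. It depended on signal, with a median SD of 0.113 for probe sets between 6.35 and 7.67 and of 0.031 for the brightest 1%. The 100 brightest genes had a median SD of 0.027 against 0.0953 over all genes, and the widest of them were Lmo4 (0.103), Tcf4 (0.097), a transcription factor of neuronal differentiation, and Fabp7 (0.089).

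**Figure D3:**
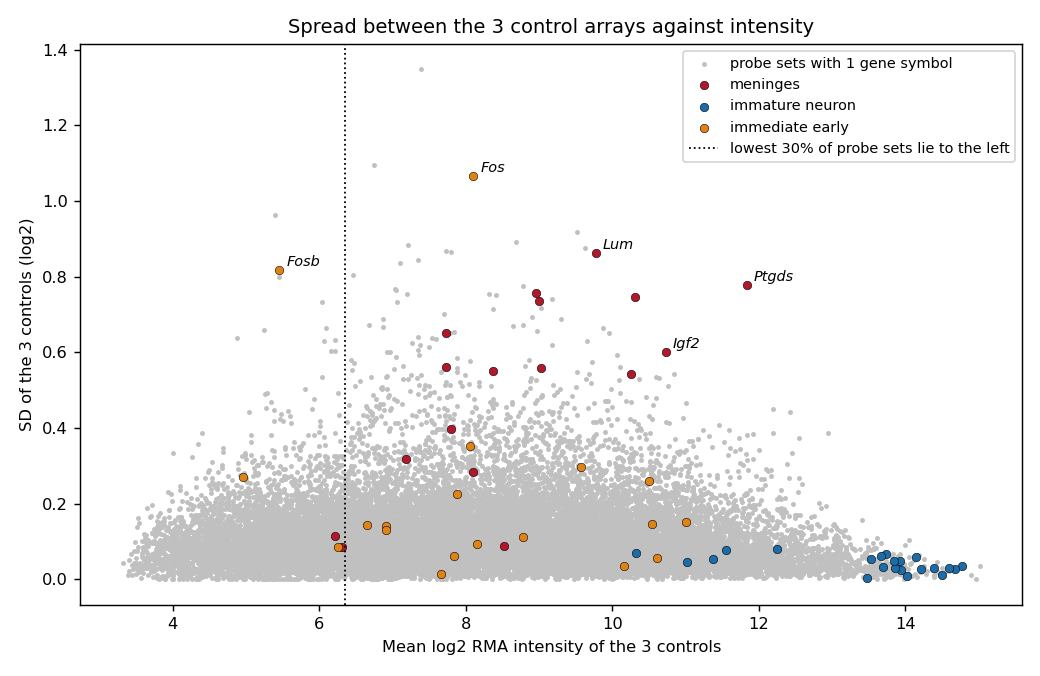
SD of the 3 controls (vertical axis, log2 units) against mean log2 RMA intensity (horizontal axis) for each probe set with 1 gene symbol, with 1 coloured point per gene for 3 gene lists and a dotted line at the filter on dim probe sets (6.35). Immature neuron genes lie at the bottom right, while most meningeal genes and Fos lie well above the cloud, with SDs of 0.78 for Ptgds, 0.86 for Lum and 1.07 for Fos.

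Genes of the meninges, the connective tissue on the brain surface, were among those that varied most between the 3 pups. After the dimmest 30% of probe sets were set aside, 11560 genes were ranked by SD, and the first 100 had SDs from 1.35 to 0.511, with the next gene also at 0.511. The ranking is a description and has no test. Of 15 ranked genes of the meningeal list, 11 were among the 100. They were the small proteoglycans Ogn, Lum and Dcn, the fibrillar collagens Col3a1, Col1a1 and Col1a2, the prostaglandin synthase and carrier Ptgds, the growth factor Igf2, the transporters Slc6a13 and Slc13a4, and Islr.

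Ptgds read 12.40, 12.15 and 10.94 in controls 1 to 3. Lum read 10.69, 9.65 and 8.98, Col3a1 read 11.05, 10.33 and 9.56, and Igf2 read 11.37, 10.63 and 10.18. Each was highest in control 1 and lowest in control 3, as were 60 of the 100 genes. Ogn, at chr17:15238500-15259167 of GRCr8, had 4 probe sets, and all varied in the same order. The one with the widest spread read 7.55, 7.20 and 5.50 (SD 1.09), and the brightest read 9.65, 9.06 and 8.15. Fmod, Foxc1 and Slc47a1 of the same list varied less, with SDs of 0.32, 0.09 and 0.12, as did Aldh1a2 with 0.09.

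Other genes in the first 40 have known places in vessels, meninges or matrix. Lyve1, a marker of border macrophages and lymphatic endothelium, read 8.41, 8.03 and 6.75. The gap junction genes Gjb2 and Gjb6, expressed in leptomeninges and in astrocytes respectively, read 10.44, 9.76 and 8.70 and 7.91, 7.28 and 6.40. Cldn11, the claudin of myelin that is also found in the arachnoid barrier, read 10.34, 9.70 and 8.53 (SD 0.92). The collagens Col6a3, Col8a2, Col14a1 and Col10a1, the collagen chaperone Serpinh1, Gpc3, Colec12, Serpinf1 and the mural and fibroblast factor Tbx18 had SDs between 0.66 and 0.80. All of these but Col10a1 and Col14a1 were highest in control 1 and lowest in control 3.

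The first gene by SD was Aldh1a3, which makes retinoic acid from retinal. It lies at chr1:129392516-129436552 and read 7.46, 8.70 and 6.01 in the controls (SD 1.35) on its only probe set. It varied within the exposed groups too, from 7.27 to 8.91 on the 750 ppm arrays and from 8.60 to 9.35 on the 2500 ppm arrays. Nrp2, a receptor for semaphorins, was among the genes with the opposite order, at 8.11, 8.45 and 9.40. Harbi1, Mga, Supt3h, Ebp and Pola1, with general roles in the nucleus or in sterol synthesis, also ranked in the first 40. Harbi1 read 7.68, 9.39 and 8.98 on that probe set, while its other probe set had an SD of 0.26. Mbp entered through its second probe set, with 9.21 in control 3 against 10.31 and 10.36, whereas its brightest probe set had an SD of 0.04.

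**Figure D4:**
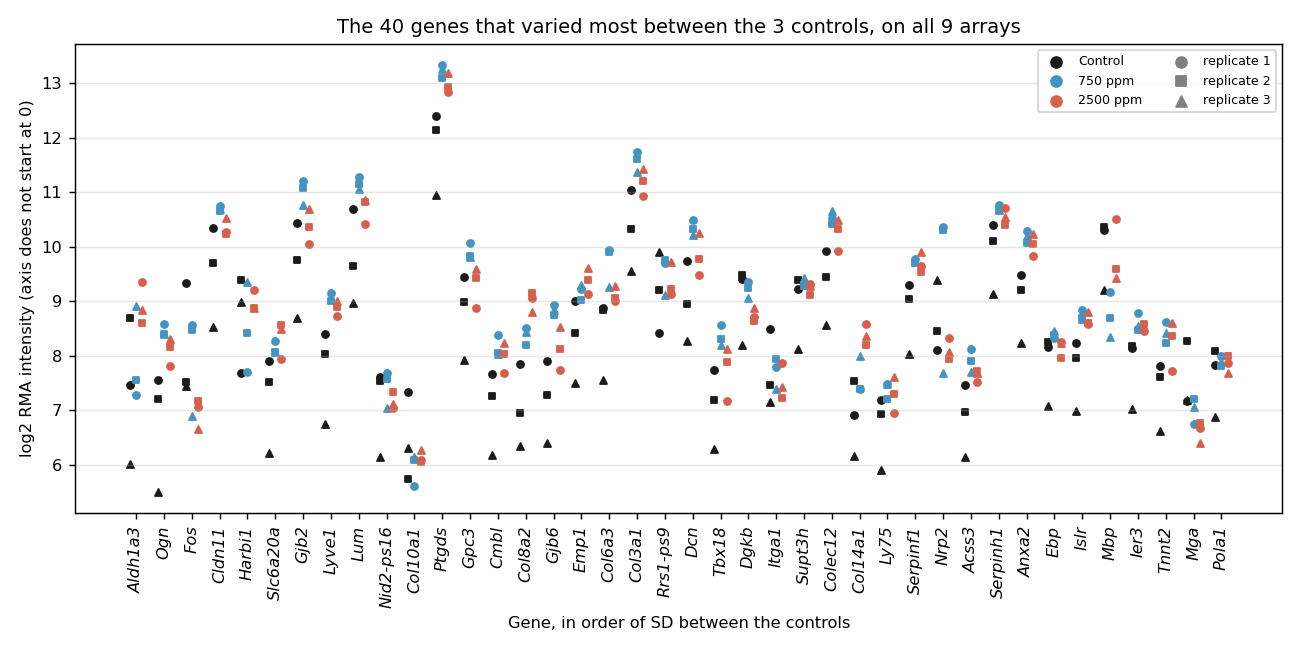
Log2 RMA intensity (vertical axis, not starting at 0) of the 40 genes with the highest SD between the controls, in order of SD, with 1 point for each of the 9 arrays, coloured by group and shaped by replicate. Control replicate 3 (black triangles) is the lowest control for most genes, and Fos reads 9.33 in control 1 against 7.51 and 7.45 in the others.

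The variation followed the arrays. Control 3 was the lowest control for 84 of the 100 genes, against 45.2% of all ranked genes, and control 1 was the highest for 63. The share of all ranked genes that were highest in control 1 was not counted. In 40 genes, control 3 was low while the other two lay within 0.3 log2 units of each other. The SD of the same probe sets within the exposed groups, which the ranking did not use, had a median of 0.225 for these 100 genes and of 0.0914 for all ranked genes. It was past the 95th percentile of exposed SDs (0.262) in 40 of the 100, against 4.37% of all ranked genes. Of the 11 meningeal genes among the 100, only Dcn (0.294) and Col1a2 (0.267) were past it. The other meningeal genes lay between 0.107 for Islr and 0.260 for Slc6a13. All 3 controls lay below all 6 exposed arrays for 26 of the 100 genes (4.12% of all ranked genes) and above all 6 for 0 (1.65%). Without control 1, 60 of the 100 genes stayed among the first 100, without control 2 80 did, and without control 3 32 did. The meningeal genes among the first 100 then numbered 3, 11 and 7.

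Averaged over the list, the 17 meningeal genes differed from their control mean by 0.48 in control 1, 0.02 in control 2 and -0.50 in control 3. The 13 endothelial genes moved the same way, by 0.18, 0.07 and -0.25. The 21 cell cycle genes gave 0.10, 0.09 and -0.18, and the 17 astrocyte genes 0.05, 0.08 and -0.13. The 22 immature neuron genes gave -0.02, 0.02 and 0.00 and the 43 ribosomal genes stayed within 0.01. The lists of immature neurons and ribosomes thus had a smaller range over the 3 pups than those of meninges and vessels. Immature neuron and ribosomal genes were also brighter, with medians of 13.85 and 13.78 against 8.53 and 8.14. Spread was smallest for the brightest probe sets. On the exposed arrays, the meningeal list lay between 0.70 and 1.23 above the control mean, beyond all 3 controls. The amount of meninges in each dissected block and a change within the meninges cannot be told apart.

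**Figure D5:**
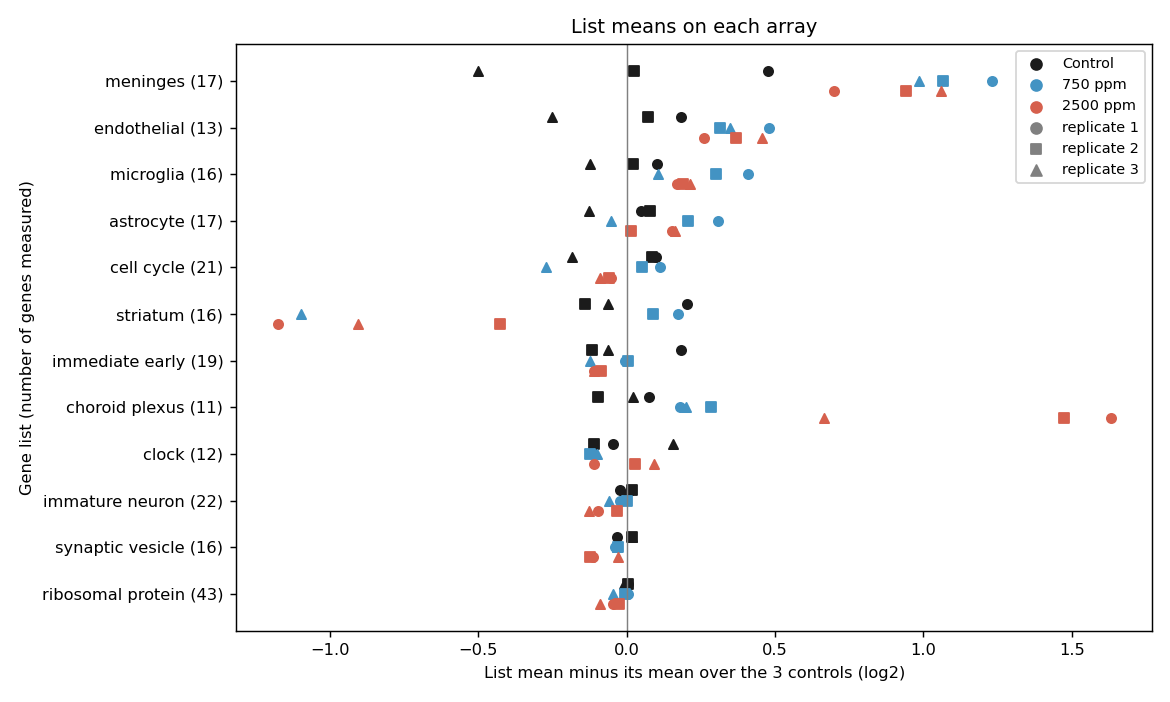
Mean of each of 12 gene lists on each of the 9 arrays, minus its mean over the 3 controls (horizontal axis, log2 units), coloured by group and shaped by replicate. Controls spread from -0.50 to 0.48 for the meningeal list and lie almost on 0 for the immature neuron and ribosomal lists.

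Immediate early genes are switched on in neurons within minutes of activity or stress, and Fos differed most between the controls. Fos, at chr6:110852188-110855054, read 9.33, 7.51 and 7.45 in controls 1 to 3 on its brighter probe set and 5.95, 5.57 and 6.06 on the other. Fosb read 6.39, 4.94 and 5.02, all below the other-organ signal. On the exposed arrays, the brighter Fos probe set ranged from 6.66 to 8.56, so control 1 was the highest of the 9 arrays. Junb read 7.65, 7.67 and 7.67, Arc 6.80, 6.89 and 7.05, and Jun 10.55, 10.62 and 10.66, none of them highest in control 1. Egr1 and Klf4 were also highest in control 1, at 10.80, 10.41 and 10.30 and at 8.44, 7.75 and 7.99. Over the 19 measured genes, 10 were highest in control 1, with no share over all genes counted. The list mean differed from the control mean by 0.18, -0.12 and -0.06 in controls 1 to 3. Without control 1, Fos was no longer among the 100 most variable genes.

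Many immediate early genes respond to cyclic AMP and calcium through the element TGACGTCA, which reads the same on both strands. In the 250 bases before the RefSeq start it was found in 3 of 15 genes of the list with a promoter entry, Ier2, Dusp1 and Btg2, and in 531 of 33469 promoters (1.59%). Fos had no promoter entry and was not searched. The sites of Ier2 and Dusp1 are printed here, with their values in the controls below. They lie at chr19:40399283-40399338 and chr10:17184705-17184760 of GRCr8, on the plus strand, with the element in capitals:
Ier2: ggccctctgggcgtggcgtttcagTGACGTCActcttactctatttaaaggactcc
Dusp1: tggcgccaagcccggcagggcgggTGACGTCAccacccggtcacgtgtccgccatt
Ier2 read 8.79, 8.89 and 8.67 and Dusp1 10.12, 10.20 and 10.16 in controls 1 to 3. A match in these letters is a description of the sequence and does not show binding.

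The baseline genes were set against the exposed groups in a limma model of all 9 arrays. At 750 ppm, 0 of the 100 brightest genes passed an adjusted p of 0.05, against 0.0092% of the 21729 probe sets tested, and 0 had an unadjusted p under 0.05 (10.1% of all). At 2500 ppm, 0 passed, against 0.686%, and 1 had an unadjusted p under 0.05 (16% of all). Their changes ranged from -0.21 to 0.07 at 750 ppm and from -0.13 to 0.17 at 2500 ppm, with medians of -0.01 and -0.02. Both adjusted counts are near the background share and say nothing particular about the brightest genes, whose SDs and changes were both small.

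Of 549 tested genes of the lists, with the other-organ and sex-linked lists left out, 0 passed at 750 ppm and 12 at 2500 ppm. An unadjusted p under 0.05 was found for 90 and 137 of them. Adjusted p-values are Benjamini-Hochberg values from limma over all probe sets. The 7 higher at 2500 ppm were Ttr, Aldh1a2, Slc47a1, Fmod, Tshz2, Nts and Alas2, and the 5 lower were Meis2, Tac1, Kcna4, Sv2b and Cacng4. Over all probe sets the split was 61 higher (0.281%) and 88 lower (0.405%), and a second quantile normalization gave 74 higher and 71 lower. Kcna4, an A-type potassium channel, read 8.95, 9.04 and 8.98 in the controls and was lower by a log2 change of -0.49 (SE 0.07, adjusted p = 0.0242, n = 3 against 3). Meis2 read 13.21, 13.10 and 13.01 in the controls and changed by -0.94 (SE 0.10, adjusted p = 0.0135). Ttr read 7.70, 7.34 and 8.17 and changed by 5.67 (SE 0.62, adjusted p = 0.0135). On the 3 arrays of the 2500 ppm group, the mean of the 11 choroid plexus genes, Ttr among them, lay 1.63, 1.48 and 0.66 above the control mean, and that of the 16 striatal genes, Meis2 and Tac1 among them, differed from it by -1.18, -0.43 and -0.91. The part of those tissues in the changes of Ttr, Meis2 and Tac1 was not tested. Of the 16 tested meningeal genes, 3 passed at 2500 ppm, and they were Aldh1a2, Slc47a1 and Fmod, whose control SDs were 0.09, 0.12 and 0.32. All 16 were higher with an unadjusted limma p under 0.05 at 750 ppm and at 2500 ppm, with median changes of 1.24 and 0.93. Of all probe sets, 10.1% and 16% had such a p in either direction. Ptgds, which ranked high for its spread between controls, changed by 1.16 (SE 0.31, adjusted p = 0.124) and did not pass. Of the 12 calls, 4 were lost without control 1, 12 without control 2 and 9 without control 3, and 8, 11 and 5 without replicates 1, 2 and 3 of the 2500 ppm group. The changes kept their direction throughout, and without control 2 they were 5.47 for Ttr, -0.95 for Meis2 and -0.46 for Kcna4. Cacng4 also lost its call with median-centred arrays (limma adjusted p = 0.051) and after a second quantile normalization (0.0669).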

How the data were processed

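The authors deposited a table of log2 RMA values for 31099 probe sets and 9 arrays, each array holding 1 pup. The labelling reaction took 100 ng of RNA and 16 hours, per the labels. The submitters' processing notes name the affy package and RMA, with versions not given in the sources used here. RMA equalises the arrays' distributions and compresses differences near background. The number of arrays limits the precision. Gene symbols came from the platform annotation, and 20758 of 20826 probe sets with 1 symbol matched a GRCr8 gene table by Entrez identifier. A further 436 probe sets with several symbols and 9780 with none were not named. The 57 control probe sets were left out.

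Genes were ranked by control mean and, outside the dimmest 30% of probe sets, by control SD. Named were the first 40 genes of each ranking and members of 48 gene lists. The members and lists were chosen with earlier results of these data known. Counts of genes above the other-organ signal have no test. Exposed groups were compared with limma 3.58.1 in R 4.3.3 (1 mean per group, all 9 arrays, dimmest 30% left out, two-sided, Benjamini-Hochberg threshold 0.05), which was tested on simulated data. An exact permutation test of 3 arrays against 3 would have too few arrangements to pass this threshold. Alternatives were other filters, summaries, reference percentiles, scalings, a replicate block, fits of only the groups compared and leaving out each array. RefSeq start sites and promoters were of GRCr8.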

Additional observations from a re-analysis of the deposited data

How the results depend on the processing

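Of the 100 brightest genes, between 71 (mean of all probe sets of a gene) and 99 stayed among the first 100 under the 6 alternatives tried, and between 96 and 99 when a control was left out. Immature neuron genes among them numbered between 10 and 15. The genes above the other-organ signal numbered 11544 with the 75th percentile as reference, 6965 with the highest probe set and 8559 with each gene's median probe set, and between 9989 and 10301 when a control was left out. The most variable genes depended more on the choice. With the dimmest 50% left out, 62 of 100 stayed, with no filter 88, with median-centred arrays 97, with SD taken relative to its trend 84, and between 32 and 80 when a control was left out. The SD of 40 named genes moved by more than 1.5 times for 8, 1 and 30 of them without control 1, 2 and 3.

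Probe sets called by limma at 750 ppm numbered 1 when only both groups compared were fitted, and between 0 and 49 when an array was left out. The listed genes called then numbered 1 after a second quantile normalization and between 0 and 13 when an array was left out. At 2500 ppm, fitting only both groups gave 482 calls, 35 of them listed genes, and leaving out an array gave between 9 and 447 calls and between 1 and 40 listed genes. Where an array is left out, its group has 2 arrays and the spread is shared with the other groups. No brightest gene was called under any of these settings. Same-numbered arrays of different groups correlated between -0.20 and 0.31 in their deviations from the group means over 9 pairs. These pairs are not independent and cannot exclude shared handling. The labels give no link beyond the number. With the replicate block, 2 probe sets were called at 750 ppm and 122 at 2500 ppm, and 0 and 12 listed genes. Alas2 (limma adjusted p = 0.0723) and Cacng4 (0.0782) were not among those 12. The causes of these shifts were not tested.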

Other observations

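Several clock genes were highest in control 3. Cry1, a repressor of the molecular clock, read 9.68, 9.60 and 10.45 in controls 1 to 3, Per2 9.45, 9.48 and 9.91, and Nr1d2 9.82, 9.73 and 10.30. Control 3 was the highest of the 3 for these genes and for Cry2 (10.19, 10.26 and 10.51) and Tef (10.01, 9.88 and 10.35). Nr1d1 was also highest in control 3, at 7.15, 6.88 and 7.22, while Dbp, an output gene of the clock, read 8.23, 8.05 and 8.16. Of the 12 measured clock genes, 3 were highest in control 1, and the share of all genes highest in control 3 was not counted. Over the 12 measured clock genes, the mean differed from the control mean by -0.05, -0.11 and 0.16 in controls 1 to 3. No test was made of this difference, and the hour of sampling is not stated in the labels.

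Stress and metabolic genes were also measured at baseline. Ldha, of lactate production, read 13.04, 13.17 and 12.87, and Vegfa, the vessel growth factor, 9.72, 9.78 and 9.34. The chaperone Hspa5 read 12.73, 12.81 and 12.13, lowest in control 3, while Hspa1a, the inducible heat shock gene, read 6.82 ± 0.10, below the other-organ signal. Nr3c1, the glucocorticoid receptor, read 9.67, 9.52 and 9.56, and its target Fkbp5 9.20, 9.30 and 8.94. Xist, the RNA of the inactive X chromosome in females, read 12.17, 12.31 and 12.59 on its brightest probe set. Its other probe sets read 10.70 ± 0.13, 10.69 ± 0.05 and 10.08 ± 0.07. The Y-linked Eif2s3y read 3.43, 3.56 and 3.43. Uty, also Y-linked, read 10.21, 10.32 and 10.42 on 1 probe set and 5.82 ± 0.13 on the other. The brighter Uty probe set read between 10.02 and 10.32 on the exposed arrays. The brighter Uty probe set thus stood against bright Xist and the dim Y-linked probe sets of Eif2s3y and Uty. The sex of the pups was not settled from these probe sets.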
